A study of Tupaia belangeri with 6 samples.

Results

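The adrenergic receptors are the cell surface receptors for noradrenaline and adrenaline, and 8 receptor genes were examined here, namely ADRA1A, ADRA1B, ADRA1D, ADRA2A, ADRA2B, ADRA2C, ADRB1 and ADRB3. Members were found as the loci that carry exactly 1 of these gene names in the gene abundance tables, and 6 of the 8 had a locus, among 95863 loci in all. ADRA1D and ADRA2A had no row under these names and were not analysed here. No gene-like copy (a name with the ending "li") of any member was listed.

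The samples were RNA libraries of the prefrontal cortex (PFC), from 6 adult Chinese tree shrews (Tupaia belangeri), 3 females (numbered 1, 3 and 4) and 3 males (numbered 1, 4 and 5), none of them treated or genetically altered as far as the labels say. The study's sample overview gives every male a greater age than every female, so age and sex cannot be told apart in this comparison. Levels are in TPM, a transcript abundance scaled by transcript length and by library, so that genes of 1 library can be compared with each other. The tables hold no read counts and the depth behind a TPM value is therefore unknown, but they list the mean coverage (sequencing depth per base, averaged over a locus).

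Adrenergic receptors signal through G proteins. The alpha-1 receptors couple to Gq, which activates phospholipase C and releases calcium. The alpha-2 receptors couple to Gi, which lowers cyclic AMP, and they sit on the endings of noradrenergic axons as well as on the neurons that receive them. The beta receptors couple to Gs, which raises cyclic AMP. The cortex receives its noradrenaline from axons of the locus coeruleus in the brainstem, and in the PFC alpha-2 receptors are known for their part in working memory and alpha-1 receptors for their part in the response to stress.

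The tissue carried the markers of cortex. SLC17A7, the vesicular glutamate transporter of cortical excitatory neurons, was at 783 to 1569 TPM, and 5 of the 6 markers of this cell type had a row. The 5 markers of noradrenergic neurons together reached 2.57 to 7.35 TPM in the female animals and 0.484 to 4.0 TPM in the male ones, and among them SLC6A2, the noradrenaline transporter, reached at most 0.154 TPM and DBH 3.67 TPM. Over 11 marker lists, 38 genes were tested between the sexes and 2 passed, the hemoglobin genes HBQ1 and HBG. Females had a summed level of the blood list (3 of 5 with a row) of 1275 to 2542 TPM, and the males one of 62.7 to 101.2 TPM. The sums of the oligodendrocyte list (3 of 5 with a row) were also separate. They were 347.6 to 481.6 TPM in the female animals and 80.7 to 235.6 TPM in the male ones. No gene of this list passed the threshold, and 1 of the 3 was separate by itself. For the lists of excitatory neurons, interneurons, astrocytes, microglia, endothelium, striatal projection neurons, noradrenergic neurons and choroid plexus, the summed levels of females and males overlapped and no gene passed. Taken singly, 2 of 5 endothelium genes and 1 of 5 measured excitatory neuron genes did not overlap between the sexes, against 9.81% of autosomal genes. Of the list of smooth muscle and pericytes 1 of 5 genes had a row, PDGFRB, and its ranges overlapped. Loci without an assigned strand held 2.30% to 3.33% of all TPM in the females and 2.67% to 7.88% in the males, with the highest share in male 5.

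Transcripts of ADRA1B and ADRA2C made up most of the adrenergic receptor RNA in the PFC. Together they accounted for 85.6% ± 3.37 (SD, n = 6) of the TPM summed over the 6 measured receptors, and for at least 80.5% in every animal. ADRB1 and ADRA1A followed at lower levels, and ADRB3 and ADRA2B lay below 1 TPM in all 6 animals. The summed level of the 6 receptors ranged from 116.6 to 172.0 TPM, with a mean of 144.7 ± 22.0 TPM (SD, n = 6).

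**Figure D1:**
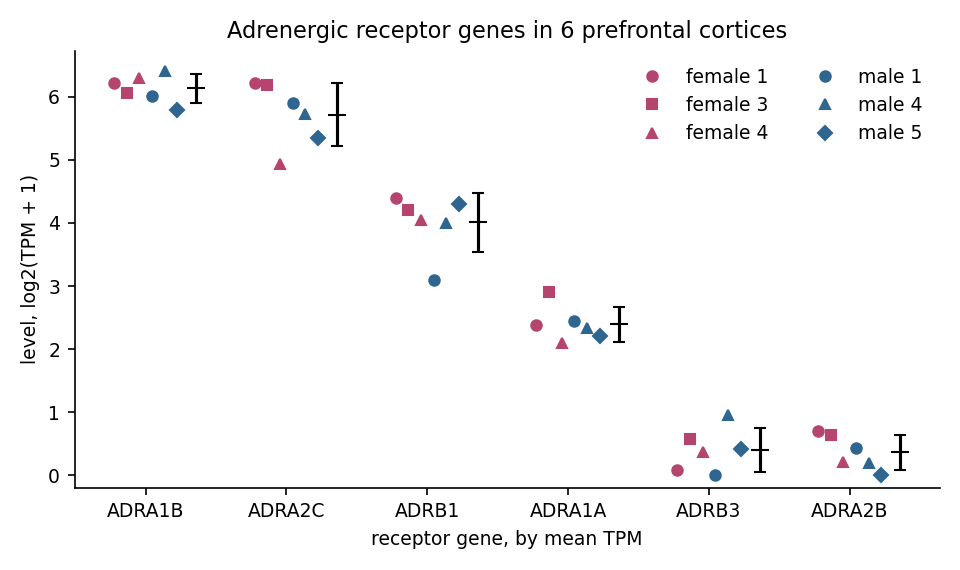
Level of each adrenergic receptor gene as log2(TPM + 1) in each animal, coloured by sex (red for female, blue for male), with black bars for the mean and SD over 6 animals. ADRA1B and ADRA2C lie highest, female 4 is the lowest point of ADRA2C, male 1 is the lowest of ADRB1, and ADRB3 and ADRA2B are near 0.

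ADRA1B, an alpha-1 receptor, lies on the plus strand of chromosome 18 (45568171 to 45740328, TS_3.0, gene ID MSTRG.23696). It was at 73.7, 65.7 and 77.9 TPM in females 1, 3 and 4, and at 63.4, 84.0 and 54.2 TPM in males 1, 4 and 5. The female values lay within the range of the males. The mean over all animals was 69.8 ± 10.8 TPM (SD, n = 6), higher than that of 97.2% of all loci. Its coefficient of variation over the 6 animals was 15.5%, and its SD on the log2(TPM + 1) scale was 0.23 against a median of 0.29 over 1790 tested genes of similar level (within 0.5 log2 units).

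ADRA2C, an alpha-2 receptor, lies on the plus strand of chromosome 8 (38351019 to 38353700, MSTRG.60403) and has the shortest locus of the measured members, at 2682 bp. It was at 73.3, 71.7 and 29.5 TPM in females 1, 3 and 4, and at 58.6, 52.0 and 39.7 TPM in males 1, 4 and 5. The lowest and the highest animals were both female, and the sexes overlapped. The mean was 54.1 ± 17.4 TPM (SD, n = 6). Its SD of 0.50 on the log2(TPM + 1) scale exceeded that of 88.3% of the 2049 tested genes of similar level, whose median was 0.29. When female 4, its most distant animal, was left out, the SD was 0.36, a description only, since the other genes did not lose theirs.

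An unnamed locus (MSTRG.60402, chromosome 8, 38344149 to 38355686) covers the whole of ADRA2C on the opposite strand. Its level was 10.5, 4.20 and 7.94 TPM in females 1, 3 and 4 and 17.9, 7.34 and 5.77 TPM in males 1, 4 and 5. The library protocol in the labels has no step that marks strand. Reads from the stretch that both loci cover thus cannot be told apart by strand of origin. How the TPM were split between the loci was not tested.

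ADRB1, the beta receptor best known from the heart, lies on the plus strand of chromosome 14 (25613492 to 25655948, MSTRG.13899). Females 1, 3 and 4 had 20.1, 17.5 and 15.4 TPM, and males 1, 4 and 5 had 7.55, 15.0 and 18.8 TPM. Male 1 stood below the other 5 animals, which lay between 15.0 and 20.1 TPM. The mean was 15.7 ± 4.45 TPM (SD, n = 6). The SD on the log2(TPM + 1) scale was 0.47, above that of 74.1% of 2455 tested genes of similar level, and without male 1 it was 0.17, above that of 10.3% of them. Male 1 was left out because it was the most distant animal, while the other genes did not lose theirs, so the lower SD is a description only.

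The locus of ADRB1 spans 42457 bp and contains or touches 5 unnamed loci, of which 3 have no strand. These unnamed loci summed to between 1.69 and 12.7 TPM in the 6 animals. A locus without strand (MSTRG.13900) was at 6.71 TPM in male 5 and at 0 in the others, and another (MSTRG.13901) was at 6.50 TPM in female 4 and at 0 in the others. Whether these loci share transcripts with ADRB1 was not tested.

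ADRA1A, the other measured alpha-1 receptor, lies on the minus strand of chromosome 19 (12193661 to 12305313, MSTRG.24503). It was at 4.22, 6.47 and 3.28 TPM in females 1, 3 and 4 and at 4.45, 4.06 and 3.61 TPM in males 1, 4 and 5. Female 3 was the highest animal and female 4 the lowest, so that the males lay inside the female range. The mean of 4.35 ± 1.12 TPM (SD, n = 6) was far below that of ADRA1B. Its SD was 0.28 on the log2(TPM + 1) scale, and it was 0.14 without female 3. The mean coverage of ADRA1A was 0.819 to 1.48, a low depth per base. The number of reads behind its levels is unknown.

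ADRB3, the beta receptor known for its role in fat tissue, lies on the plus strand of chromosome 19 (27914028 to 27920445, TSDBGID.14530). It was at 0.0623, 0.482 and 0.287 TPM in females 1, 3 and 4 and at 0, 0.947 and 0.337 TPM in males 1, 4 and 5. ADRA2B, an alpha-2 receptor, is on the minus strand of the unplaced contig1726 (61579 to 69960, TSDBGID.26608). It was at 0.620, 0.559 and 0.156 TPM in females 1, 3 and 4 and at 0.342, 0.145 and 0 TPM in males 1, 4 and 5. For both genes the mean coverage stayed below 1 in every animal, with a maximum of 0.634 for ADRB3 and 0.695 for ADRA2B. An entry of 0 in these tables can be a failed estimate, and at such coverage the presence of ADRB3 in male 1 or of ADRA2B in male 5 was not detectable. The ADRA2B locus overlaps ASTL, an opposite-strand gene at 0 to 0.287 TPM, and ADRA2B-AS-1, which was at 1.12 TPM in female 1 and listed at 0 in the other animals.

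The order of the levels was tested between neighbours with an exact two-sided sign-flip permutation test over the 6 animals, on differences in log2(TPM + 1). Neighbours were set by mean TPM in these same animals, so the p-values are not independent of the choice of pairs. ADRA2C exceeded ADRB1 in 6 of 6 animals (mean difference 1.71 ± 0.69, SD, exact permutation p = 0.0312). ADRB1 exceeded ADRA1A in 6 of 6 animals by 1.61 ± 0.55 (SD, exact permutation p = 0.0312). ADRA1A exceeded ADRB3 in 6 of 6 animals by 2.0 ± 0.42 (SD, exact permutation p = 0.0312), a gap whose size depended on the scale, at 0.67 by coverage and 4.56 with a pseudocount of 0.01. This p is the smallest that 6 animals allow, and Benjamini-Hochberg adjustment over the 5 neighbouring pairs gave 0.0521 for each of these 3 exact tests, just above 0.05.

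The first and the last places in the order were not resolved in TPM. ADRA1B exceeded ADRA2C in 5 of 6 animals by 0.42 ± 0.55 (SD, exact permutation p = 0.156, adjusted p = 0.195). ADRB3 exceeded ADRA2B in 3 of 6 animals by 0.039 ± 0.52 (SD, exact permutation p = 0.875).

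The place of ADRA2C against ADRA1B turned over with the unit. In TPM, the ratio of ADRA2C to ADRA1B of females 1, 3 and 4 was 0.995, 1.09 and 0.378, and that of males 1, 4 and 5 was 0.924, 0.619 and 0.732. In mean coverage, females 1, 3 and 4 had ratios of 2.52, 2.68 and 1.13, and males 1, 4 and 5 had 1.91, 1.78 and 1.41. ADRA2C was thus higher by coverage in 6 of 6 animals, with a mean log2 ratio of 0.87 ± 0.48 (SD, exact permutation p = 0.0312, a comparison chosen after the data were seen). Female 4 had the lowest ratio in either unit.

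**Figure D2:**
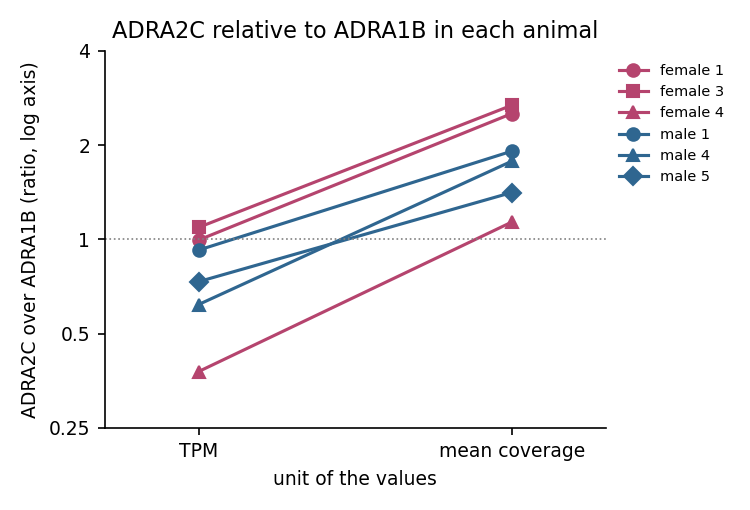
Ratio of ADRA2C to ADRA1B on a log axis, in TPM and in mean coverage, with 1 line per animal and a dotted line at a ratio of 1. In TPM the 6 animals lie between 0.378 and 1.09, and in mean coverage all 6 lie above 1.

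The receptors also differed in how many TPM they were given per unit of coverage. Relative to the median of 13461 expressed loci in the same library, this quotient was 0.712 to 0.723 for ADRA2C, 1.37 to 2.17 for ADRA1B, 1.45 to 1.84 for ADRB1 and 3.84 to 4.07 for ADRA1A. At a coverage below 1, it was 0.726 to 1.64 for ADRA2B and 0.722 to 1.75 for ADRB3. It was thus nearly fixed across animals for ADRA2C and ADRA1A, and varied more for the other 4 receptors. The tables list no transcripts or exon lengths that would show what sets this factor, and its cause was not tested.

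By receptor class, alpha-1 receptors held 51.7% ± 7.44 (SD, n = 6) of the summed adrenergic TPM, alpha-2 receptors 37.0% ± 8.31 and beta receptors 11.2% ± 3.49. Alpha-1 was the largest class in 5 of 6 animals, and in female 3 it held 44.4% against 44.5% for alpha-2. The lowest alpha-2 share was 23.4% in female 4, and the next lowest was 33.4% in male 4. The beta share ranged from 5.62% in male 1 to 16.4% in male 5. In mean coverage, alpha-2 receptors held 58.9%, alpha-1 receptors 33.3% and beta receptors 7.74%, so which alpha class came first depended on the unit, while beta came last in either. ADRA1D and ADRA2A are missing from these shares.

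**Figure D3:**
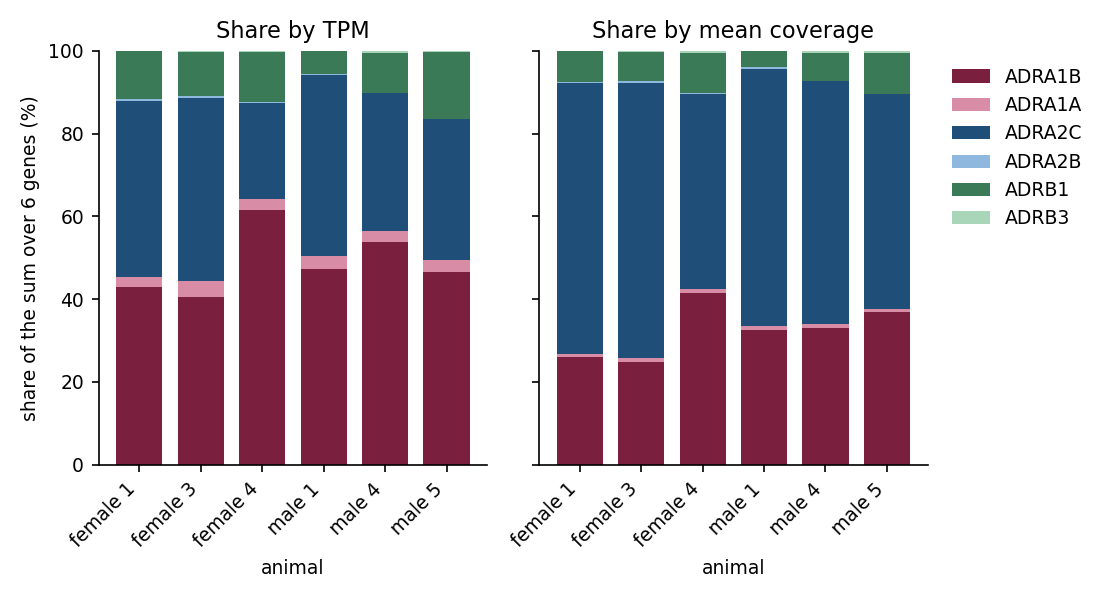
Share of each receptor gene in the sum over the 6 measured genes, in percent, as stacked bars for each animal, by TPM on the left and by mean coverage on the right. ADRA1B (dark red) and ADRA2C (dark blue) fill most of each bar, and the blue part is larger by coverage than by TPM in every animal.

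No receptor passed the test between the sexes. With limma (linear models with moderated variances) on log2(TPM + 1) and Benjamini-Hochberg adjustment, 0 of the 6 measured receptors had an adjusted p under 0.1, and 0 had an unadjusted p under 0.05. Among the 27996 autosomal genes tested, 0.0143% passed at the adjusted threshold and 5.02% at the unadjusted one, and among the 1498 genes on unplaced contigs, which include ADRA2B, 0% and 6.01% did. For 0 of the 6 receptors were females and males fully separated, against 9.81% of the autosomal genes and 10.8% of those on contigs. In bulk tissue, fewer cells of a type and less RNA per cell cannot be told apart in such a comparison.

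For ADRB1, the females averaged 17.7 ± 2.36 TPM and the males 13.8 ± 5.70 TPM (SD, n = 3 each). Its female minus male log2 difference was 0.42 (95% interval −0.34 to 1.18, adjusted p = 0.929 by limma). Without male 1 it was 0.064, and with any other animal left out it lay between 0.32 and 0.67. For ADRA1B the log2 difference was 0.13 (95% interval −0.33 to 0.58, adjusted p = 0.962 by limma), the narrowest interval of the 6. For ADRA2C it was 0.12 (−0.67 to 0.91), and with 1 animal left out it lay between −0.10 (without female 1) and 0.54 (without female 4). For ADRA1A it was 0.13 (−0.82 to 1.08), against 0.56 after quantile normalization and −0.090 without female 3. ADRA2B had a log2 difference of 0.31 (−0.33 to 0.95), and ADRB3 had −0.12 (−0.88 to 0.64). Each interval includes 0 and also differences in both directions. The summed levels of the blood and oligodendrocyte lists were separate between the sexes, and their part in the receptor values was not tested.

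**Figure D4:**
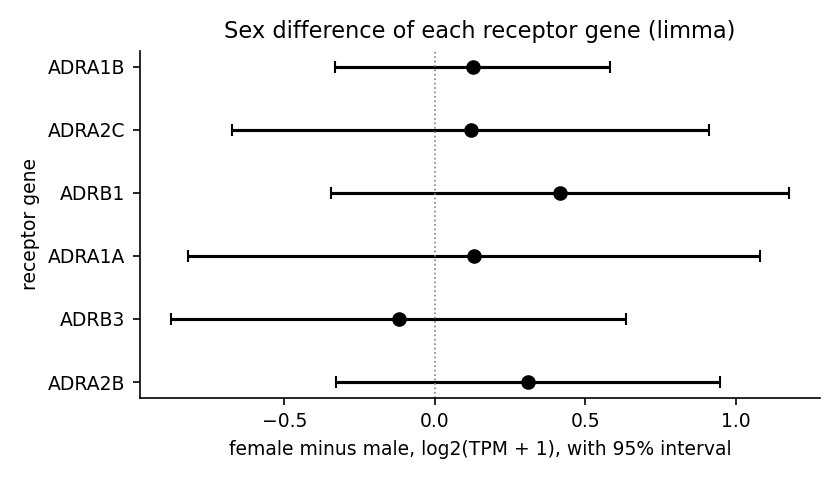
Female minus male difference in log2(TPM + 1) for each measured receptor (points) with its 95% interval from limma (bars), and a dotted line at 0. All 6 intervals include 0, and the interval of ADRA1B is the narrowest.

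Among the other genes of adrenergic signalling, none passed the threshold between the sexes. Of 68 names in 5 lists, which hold GRK2 and GRK3 under their older names too, 53 had a row and 48 were tested, of which 0 passed the adjusted threshold of limma and 1 had an unadjusted p under 0.05 (2.08%, against 5.02% of autosomal genes). The median female minus male log2 difference was −0.019 over these 48 genes and −0.029 over all 30238 genes tested.

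Enzymes and transporters of noradrenaline covered a wide range of levels. Of this list 8 of 10 genes had a row and 6 were tested, with a median log2 difference of −0.0042. PNMT, which turns noradrenaline into adrenaline, was the highest at 124.5 ± 62.9 TPM (SD, n = 6), with 229.7 TPM in male 1 and 70.0 TPM in female 4. Its locus (chromosome 15, 67297699 to 67346593) spans 48895 bp and its edge overlaps that of PGAP3, and how much of its value belongs to PNMT was not tested. MAOA, which breaks down noradrenaline, was at 57.8 ± 8.40 TPM (SD, n = 6). In contrast, the noradrenaline-making enzyme DBH was at 0.484 to 3.67 TPM.

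For the Gq branch, downstream of alpha-1 receptors, 9 of 10 genes were tested, with a median log2 difference of −0.071. PRKCB, a protein kinase C, was at 227.0 ± 28.5 TPM and ITPR1, a calcium release channel, at 134.9 ± 40.5 TPM (SD, n = 6 for each). GNAQ, a Gq subunit, was listed at 0 in all 6 animals, and an entry of 0 can be a failed estimate. The locus with this name spans 1152 bp, and whether it holds the whole gene was not tested.

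For the Gi branch, downstream of alpha-2 receptors, 7 of 10 genes were tested, with a median log2 difference of −0.016. GNAO1 at 186.4 ± 22.2 TPM and GNAZ at 149.9 ± 16.3 TPM encode inhibitory G protein subunits, and HCN2 at 129.8 ± 32.8 TPM (SD, n = 6 for each) encodes a cation channel opened by cyclic AMP and hyperpolarization. GNAI1 was listed at 0 in all animals.

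For the Gs branch, downstream of beta receptors, 14 of 20 genes were tested, with a median log2 difference of 0.13. GNAS, the stimulatory G protein subunit, was at 950.1 ± 100.1 TPM, PRKACA, a catalytic subunit of protein kinase A, at 172.0 ± 33.0 TPM and GNAL, a related stimulatory subunit, at 127.8 ± 44.4 TPM (SD, n = 6 for each). PRKAR2B was listed at 0 in all animals, at a locus of 876 bp, and whether this locus holds the whole gene was not tested.

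Among 18 names of receptor regulators, 12 had a row and were tested, with a median log2 difference of −0.12. GRK2, the kinase that phosphorylates active adrenergic receptors, was at 344.9 ± 34.7 TPM (SD, n = 6), RGS4, which shortens G protein signals, at 265.6 ± 140.3 TPM and GIPC1, a scaffold that binds ADRB1, at 127.6 ± 42.2 TPM.

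Set beside other receptor families of the same kind, the adrenergic sum was higher than that of the serotonin receptors (10 of 14 with a row) in 6 of 6 animals. The serotonin sum was 97.7 ± 19.3 TPM (SD, n = 6), with a log2 ratio to the adrenergic sum of −0.58 ± 0.31 (exact two-sided sign-flip permutation p = 0.0312, adjusted p = 0.0469 over 3 families). The dopamine receptors (4 of 5 with a row, DRD2 not among them) summed to 6.05 ± 3.93 TPM, with a log2 ratio of −4.90 ± 1.05 (SD, n = 6, exact permutation p = 0.0312, adjusted p = 0.0469). The muscarinic receptors (4 of 5 with a row) summed to 138.8 ± 19.3 TPM and exceeded the adrenergic sum in 2 of 6 animals (log2 ratio −0.058 ± 0.24, SD, exact permutation p = 0.594). ADRA1B, with 69.8 TPM on average, lay between CHRM1 at 116.1 TPM and HTR2A at 30.5 TPM, the strongest muscarinic and serotonin receptors. The strongest dopamine receptor, DRD1, had 4.14 TPM. Genes without a row are missing from each family, so these sums are lower limits. The families were not compared in mean coverage, the unit that turned over the order of ADRA1B and ADRA2C.

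**Figure D5:**
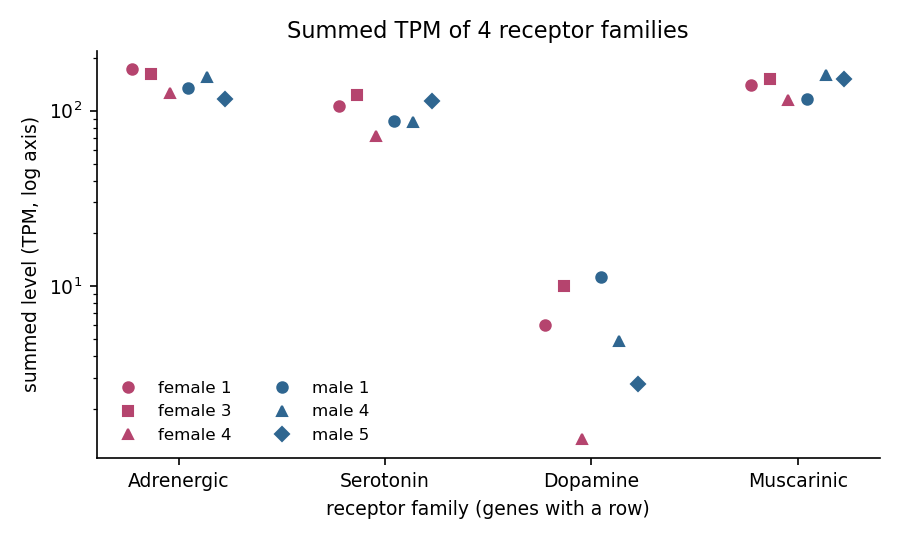
Summed TPM (log axis) of the adrenergic, serotonin, dopamine and muscarinic receptor genes that had a row, with 1 point per animal (red for female, blue for male). The adrenergic points lie above the serotonin point of the same animal in all 6 animals, overlap the muscarinic points, and are far above the dopamine points.

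Other genes had profiles much like those of the receptors over the 6 animals. Likeness was measured as the root mean square difference of the mean-centred log2(TPM + 1) values over the 6 animals, among named genes with at least 1 TPM and at least the receptor's own range. For ADRB1 the nearest were FGFR3 (0.13) and STARD5 (0.15). For ADRA2C they were GAB1 (0.15) and RHPN2 (0.16). A gene picked by this measure shares the high and low animals of its receptor by choice. For ADRA1B they were EFNA3 and PCDHB14li2 (0.066 each), and for ADRA1A MTRF1L (0.087) and FOXN2 (0.090). Within 0.15 lay 128 of 8190 genes compared for ADRA1B and 48 of 6211 for ADRA1A. For ADRB1 there were 2 of 2483 within this distance, and for ADRA2C 1 of 2559.

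Most non-coding loci named after the receptors were listed at 0 in all 6 animals, which can be a failed estimate. Of 9 loci with the name of ADRA2A in their ID, 1 was above 0 TPM, at 0.171 in a single animal, and 0 of the 5 named after ADRA2C were above 0. Of the 5 named after ADRA2B, 1 was above 0 TPM, the antisense locus ADRA2B-AS-1. Within 10000 bases of ADRB3 the gene GOT1L1 was the one listed locus, at up to 0.0995 TPM.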

How the data were processed

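Per the labels, polyadenylated RNA was enriched and sequenced as paired reads. The authors mapped the reads to TS_3.0 with HISAT2 2.2.1 and, with StringTie 2.2.1, assembled transcripts per animal, merged them with the reference annotation and wrote gene abundances per animal. The deposited tables give TPM, FPKM and coverage. The deposited TPM values are scaled by length and library, the deposited FPKM values are proportional to TPM within a library, and the deposited coverage is a mean read depth per base without library scaling. They hold no counts, so no count test was run, no counting interval was computed, and precision rests on the 6 animals. Replicates are separate animals.

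Rows of 1 gene ID and reference were summed with Python 3.11.15, pandas 2.3.3, numpy 2.4.6 and scipy 1.17.1, and plots were drawn with matplotlib 3.10.9. Loci that reached 0.1 TPM in at least 3 animals, outside the male-only segments that the authors removed from chromosomes X and 26, were tested on log2(TPM + 1) with limma 3.58.1 in R 4.3.3 (mean-variance trend, no covariate). This scale understates the change of low genes. Benjamini-Hochberg adjustment was done separately within autosomes, within the X chromosome and within unplaced contigs, with a threshold of 0.1. The contigs had not been assigned to a set in the plan and were added because ADRA2B lies on 1 of them. Levels of 2 receptors or families in the same animal were compared by exact sign-flip permutation over the 6 animals.

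The members and the gene lists (noradrenaline synthesis and breakdown, Gq, Gi and Gs branches, receptor regulation, serotonin, dopamine and muscarinic receptors, and the 11 marker lists of cell types) were chosen with earlier results of these data known. Named genes are all members, the 3 genes with the highest mean of each signalling list, the highest gene of each receptor family, the 2 genes most alike to each receptor with at least 1 TPM, and the tissue and cell type markers, except some genes that are not reported here. DBH, GNAQ, GNAI1, PRKAR2B and genes that overlap or neighbour a member or PNMT were named after their values were seen. No sequences of these genes were used here. A table of RefSeq gene names (TupChi_1.0) listed 7 of the 8 members, all but ADRB3, and served for names only.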

Additional observations from a re-analysis of the deposited data

Results flagged for a closer look

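ADRA1A stood out in female 3, at 6.47 TPM against 3.28 to 4.45 TPM in the other 5 animals. The gap from female 3 to the next animal was 0.633 of the whole range over the 6 animals, above the 95% critical value of Dixon for 6 values. The mean coverage of ADRA1A was 1.48 in female 3 and 0.819 to 1.08 in the other animals. The test flags about 1 in 20 groups by chance, and 6 receptors were tested. The low value of ADRB1 in male 1 did not pass, with a gap of 0.591 of the range.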

How the results depend on the processing

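Under the 20 settings run (18 for ADRA2B and ADRB3), 0 receptors passed the limma threshold between the sexes, with adjusted p-values of at least 0.663, and the sign of the difference changed under at least 1 setting for ADRA1A, ADRA1B, ADRA2C and ADRB3, while ADRB1 and ADRA2B stayed above 0. Settings that change only the filter, the variance trend or the adjustment cannot move the difference, so they do not test its sign. With the animal number as a replicate block, the differences of ADRA1A and ADRA2C were −0.15 and −0.24, and no receptor was called. The labels do not say that numbers pair animals, and the deviations of the 2 same-numbered pairs had correlations of −0.0048 and 0.038, so this block has no basis in the design. With the share of TPM without strand as a covariate, ADRA1B and ADRA2C were at −0.15 and −0.20. ADRA1A was at 0.56 after quantile normalization. ADRB3 was at 0.56 and ADRA2B at 2.26 with a pseudocount of 0.01, and neither was tested with FPKM or with at least 1 TPM required. With each animal left out, the log2 difference ranged from −0.090 to 0.31 for ADRA1A, −0.015 to 0.30 for ADRA1B, −0.10 to 0.54 for ADRA2C and −0.35 to 0.13 for ADRB3, and from 0.21 to 0.46 for ADRA2B and 0.064 to 0.67 for ADRB1. It was −0.090 without female 3 for ADRA1A, −0.015 without male 5 for ADRA1B, below 0 without female 1, female 3 or male 5 for ADRA2C, and above 0 without female 1 or male 4 for ADRB3. Over all 30238 genes, 5 passed, against 8 with at least 1 TPM required, 3 with the block, 2 with the covariate and 2 (without female 1) to 7 (without male 4) with an animal left out.

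For the order of levels, coverage in place of TPM (chosen after the data were seen, also on the log2 scale with 1 added) turned ADRA1B minus ADRA2C to −0.85 and ADRB3 minus ADRA2B to −0.027, and gave 2.88 for ADRA2C minus ADRB1, 2.22 for ADRB1 minus ADRA1A and 0.67 for ADRA1A minus ADRB3. The last was 3.66 and 4.56 with pseudocounts of 0.1 and 0.01. The cause was not tested. With each animal left out, ADRA1B minus ADRA2C was between 0.22 (without female 4) and 0.52, ADRA2C minus ADRB1 stayed between 1.49 and 1.87, ADRB1 minus ADRA1A between 1.51 and 1.80, ADRA1A minus ADRB3 between 1.91 and 2.12 and ADRB3 minus ADRA2B between −0.11 and 0.17, and the last was below 0 without male 4 or male 5. The log2 ratio to the adrenergic sum stayed between −0.68 and −0.52 for serotonin receptors and between −5.16 and −4.56 for dopamine receptors. With 5 animals the exact test cannot go below 0.0625, so no such call can be kept. By coverage, the class shares were 33.3% for alpha-1, 58.9% for alpha-2 and 7.74% for beta. In TPM, adding the unnamed overlapping loci gave 47.3%, 38.5% and 14.2%, each within 1 SD of the TPM shares without them. Depth per base was lowest for ADRB3 and ADRA2B, at a coverage below 1, and then for ADRA1A. The number of reads behind these levels is unknown.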
